A study of Mus musculus with 9 samples.

Results

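The genes described here encode focal adhesion kinase (FAK, *Ptk2*), its only close paralog Pyk2 (*Ptk2b*), the Src-family kinases *Src*, *Fyn* and *Yes1*, and the scaffolds and adaptors p130Cas (*Bcar1*), HEF1 (*Nedd9*), paxillin (*Pxn*), *Crk* and *Crkl*. These 10 genes were chosen by name, as FAK, its paralog and the kinases and adaptors that bind or act with FAK. All 10 were among the 19044 genes of the count table. RNA-seq was performed on 9 libraries of cultured mouse squamous cell carcinoma (SCC) cells, 3 replicates each of FAK-WT, FAK-/- and FAK-kd cells, which the study's design calls biological replicates. The tumour came from FVB mice with floxed FAK alleles and the tamoxifen-inducible Cre recombinase K14CreER, whose keratin promoter is active in the basal cells of the epidermis, after chemical carcinogenesis of the skin with DMBA and TPA. FAK was deleted in the excised tumour cells in culture with 4-hydroxytamoxifen. Every group carries that deletion, because FAK-WT (wild-type FAK) and FAK-kd (kinase-deficient FAK, in which a lysine of the kinase domain is replaced by arginine) were put back by retrovirus into 1 FAK-/- clone. Cells expressing these constructs were selected with hygromycin, a step the study does not describe for FAK-/- cells. In comparisons with FAK-/- cells, the FAK put back, the retrovirus and the selection therefore cannot be told apart. No library of the floxed parent cells was among the samples analysed here, and each group is a single cell line.

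FAK and Pyk2 are non-receptor tyrosine kinases of the same architecture, with a FERM domain, a central kinase domain and a C-terminal focal adhesion targeting domain. When integrins cluster, FAK phosphorylates a tyrosine ahead of its kinase domain, the SH2 domain of Src binds there, and the FAK-Src pair phosphorylates p130Cas and paxillin, which then recruit Crk adaptors and through them exchange factors for small GTPases. Pyk2 also responds to calcium and is known to be raised in some cells that lack FAK, so *Ptk2b* RNA was compared across the lines. Without the floxed parent cells, this comparison asks whether *Ptk2b* differs where FAK was put back. It cannot show whether *Ptk2b* rose when FAK was first lost.

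The libraries held between 779755 and 37264636 counts, and FAK-WT replicate 1 was the lowest, the others holding at least 25304994. In that library 3 counts correspond to 3.78 CPM (counts scaled to library size, with TMM), against 0.0798 to 0.118 CPM elsewhere. FAK-/- replicate 3 stood apart from its group, differing from replicates 1 and 2 by 55.7 and 50.9 times counting noise (chi-square per degree of freedom), where replicates 1 and 2 differed by 3.25 times. FAK-kd replicate 1 differed from replicates 2 and 3 by 16.2 and 18 times, where those differed by 5.07 times. Of 10 keratinocyte and squamous carcinoma markers, *Trp63* and *Epcam* were not in the table and *Krt5*, *Krt14*, *Krt6a*, *Krt18* and *Cdh1* were under 1 CPM in every library, whereas the integrins *Itga6* and *Itgb4* averaged at least 172 and 65.5 CPM in each line. Markers of other cell types also differed between the lines. The 5 fibroblast markers in the table (of 6 listed) summed to 20.1 to 24.4 CPM in FAK-WT, 57.9 to 62.2 CPM in FAK-/- and 50 to 74.9 CPM in FAK-kd libraries, mostly from *Pdgfra* and *Pdgfrb*, with the collagen gene *Col1a1* at no more than 1.64 CPM. The 3 leukocyte markers in the table (of 5) summed to no more than 3.33 CPM and the 4 endothelial markers to no more than 2.05 CPM in any library. In bulk samples fewer cells expressing a gene and less RNA per cell cannot be told apart, and the part of these marker differences in the results was not tested.

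*Ptk2* (ENSMUSG00000022607) lies on the minus strand of chromosome 15, from 73205102 to 73423280 in mm10, and *Ptk2b* (ENSMUSG00000059456) on the minus strand of chromosome 14, from 66153257 to 66281052. Their coding sequences encode the same residue at 49.2% of 980 aligned codons, but no 31-base word of their transcripts is shared, so that reads of one are not expected to be counted for the other. Of all *Ptk2* words 2.36% also occur in transcripts of other genes, and of *Ptk2b* words 0.0537%. The codon changed in FAK-kd, the kinase-domain lysine that binds ATP, is shown with its counterpart in *Ptk2b*, since it is the designed difference between the FAK-kd and FAK-WT constructs. The lines themselves also differed in *Ptk2* level, as given below. The capitals mark the lysine codon, number 454 in exon 18 of 34 of transcript Ptk2-208 and number 457 in exon 16 of 31 of Ptk2b-201, and the windows are chr15:73268840-73268890 and chr14:66172507-66172557 of the GENCODE mm10 reference, read 5′ to 3′ on the coding strand.
Ptk2 lysine codon: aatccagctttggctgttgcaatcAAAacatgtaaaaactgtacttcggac
Ptk2b lysine codon: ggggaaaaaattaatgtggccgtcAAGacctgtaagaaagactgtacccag
These windows encode the same residue at 6 of 17 codons and share 23 of 51 bases. The second pair holds the autophosphorylated tyrosine to which the SH2 domain of Src binds, with its codon in capitals. It is codon 397 of Ptk2-208 (chr15:73276900-73276902, exon 16) and codon 402 of Ptk2b-201 (chr14:66173875-66173877, exon 14), and both windows run across an exon junction of the coding sequence.
Ptk2 tyrosine codon: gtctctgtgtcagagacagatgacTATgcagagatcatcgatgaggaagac
Ptk2b tyrosine codon: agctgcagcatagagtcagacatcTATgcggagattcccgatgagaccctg
Here 8 of 17 residues and 28 of 51 bases were the same, including the codon for the tyrosine itself. The sequences are those of the reference and not of the retroviral constructs, whose sequence and transcript length are not given in the sources used here.

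*Ptk2* was read first, as the check of the labels. It stood at 213, 216 and 216 CPM in the FAK-WT libraries, at 21.8, 23.5 and 19.6 CPM in the FAK-/- libraries and at 155, 158 and 176 CPM in the FAK-kd libraries. The 3 lines did not overlap, and FAK-/- libraries were the lowest, as the labels require. FAK-/- cells kept 10.1% of the FAK-WT level, on 595 to 729 counts per library, so this remainder was far above the floor of 3 counts. The table gives 1 value per gene, and which exons the remaining reads come from was not analysed here. FAK-kd cells had 75.9% of the FAK-WT level, a log2 fold change for FAK-WT over FAK-kd of 0.40 (standard error 0.08), which passed the test at adjusted p = 0.00163 (edgeR's quasi-likelihood test, Benjamini-Hochberg over all genes, as for every adjusted p here) but not the study's fold-change minimum of 1 on the log2 scale. FAK-kd exceeded FAK-/- cells by 2.91 on the log2 scale (standard error 0.08, edgeR adjusted p = 1e-11).

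*Ptk2b* was not detectably higher in cells without FAK. It stood at 47.8, 42.2 and 39.8 CPM in FAK-WT, at 44.9, 44.1 and 46.6 CPM in FAK-/- and at 51.6, 53.3 and 56.5 CPM in FAK-kd libraries. The FAK-/- values lay inside the range of the FAK-WT values, whereas every FAK-kd library was above every other library. FAK-WT replicate 1, the highest of its group, rests on 38 counts, with an exact Poisson 95% interval of 33.9 to 65.7 CPM that covers counting error only. The overlap rests on this library, since the other FAK-WT libraries were both below every FAK-/- library. Without it the log2 fold change for FAK-WT over FAK-/- was -0.14 (standard error 0.08) and still did not pass (edgeR adjusted p = 0.323). The mean was 43.3 ± 4.14 CPM (SD, n = 3) in FAK-WT and 45.2 ± 1.29 CPM (n = 3) in FAK-/- cells. FAK-/- over FAK-WT came to 1.08-fold, with a 95% interval of 0.947 to 1.23-fold (log2 fold change for FAK-WT over FAK-/- of -0.11, standard error 0.09, edgeR adjusted p = 0.465). The interval leaves room for a rise of up to 1.23-fold and for a small fall.

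In FAK-kd cells, which carry FAK RNA, *Ptk2b* averaged 53.8 ± 2.53 CPM (n = 3) and was 1.29-fold the FAK-WT level, with a 95% interval of 1.13 to 1.47-fold. FAK-WT over FAK-kd came to -0.36 on the log2 scale (standard error 0.09, edgeR adjusted p = 0.00928), below the fold-change minimum in size. The call was lost without FAK-WT replicate 2 (edgeR adjusted p = 0.0767), without FAK-WT replicate 3 (0.135) and without FAK-kd replicate 3 (0.07), with the adjusted p ranging from 0.00015 to 0.135 over 16 alternatives and the direction the same in each. Against FAK-/- cells the FAK-kd level was 1.19-fold (95% interval 1.05 to 1.34, log2 fold change 0.25, standard error 0.08) and did not pass (edgeR adjusted p = 0.0808). It did pass without FAK-/- replicate 3 (0.00958) and with low-count genes filtered out by filterByExpr (0.0424) or by a minimum of 10 counts in every library (0.0375). The comparison between FAK-kd and FAK-/- cells thus rested on the settings, whereas FAK-WT against FAK-/- did not pass under any of its 16 alternatives.

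The make-up of the pair therefore differed between the lines. Levels of different genes are compared only per transcript length, as CPM per kilobase of the longest coding transcript (4675 bases for *Ptk2*, 4034 for *Ptk2b*). *Ptk2b* made up 20.7%, 18.5% and 17.6% of the summed *Ptk2* and *Ptk2b* level in FAK-WT, 70.4%, 68.5% and 73.4% in FAK-/- and 27.8%, 28.1% and 27.1% in FAK-kd libraries. The shares of the 3 lines did not overlap, the means being 18.9 ± 1.59%, 70.8 ± 2.43% and 27.7 ± 0.504% (SD, n = 3 each). Each pair of lines gave p = 0.1 in an exact permutation test (two-sided), which is as low as this test can go with 3 libraries on each side. The share contains *Ptk2*, the gene deleted and put back. Its separation of FAK-/- cells therefore follows largely from the deletion and is no test of a change in *Ptk2b*. The sum itself was 56.7 ± 0.652 CPM per kb in FAK-WT, 15.8 ± 0.103 for FAK-/- and 48.2 ± 3.07 for FAK-kd cells (n = 3 each). Against FAK-WT, *Ptk2* was lower in FAK-/- cells by 41.4 CPM per kb and *Ptk2b* was higher by 0.474 CPM per kb. For the sum to equal that of FAK-WT cells, *Ptk2b* would have to stand at 52.1 CPM per kb in FAK-/- cells, 4.86-fold its FAK-WT mean. That sum includes FAK put back by retrovirus and is not the level of the floxed parent cells. In FAK-kd cells *Ptk2* was lower by 11.1 and *Ptk2b* higher by 2.61 CPM per kb. The share depends on the length used, and with the mean length of all coding transcripts it was 7.89% in FAK-WT, 47.1% for FAK-/- and 12.3% for FAK-kd cells, in the same order. That mean is 1455 bases for *Ptk2*, because 7 of its 9 coding transcripts hold fewer than 200 codons. The length of the retroviral FAK transcripts is unknown here, which bears on the shares of FAK-WT and FAK-kd cells.

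**Figure D1:**
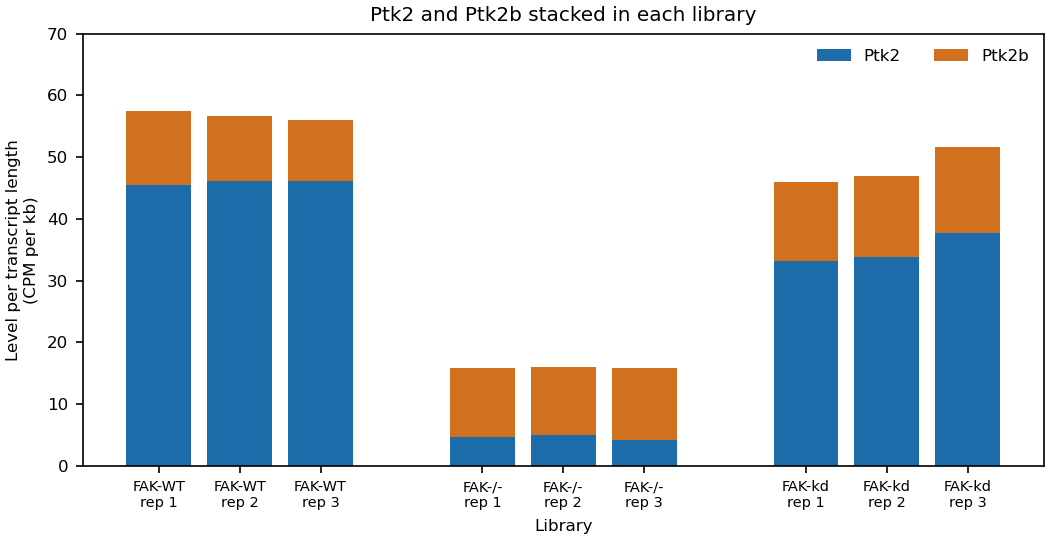
Stacked level of *Ptk2* and *Ptk2b* in each of the 9 libraries, in CPM per kb of the longest coding transcript, with 1 bar per library. The *Ptk2b* segment averages 10.7 CPM per kb in FAK-WT and 11.2 in FAK-/- libraries, while the whole bar falls from a mean of 56.7 to 15.8 CPM per kb.

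Of the Src-family members, *Src* was higher in cells without FAK. *Src* (ENSMUSG00000027646, chromosome 2, 157418444 to 157471862), the kinase that docks on phosphorylated FAK, stood at 113, 135 and 128 CPM in FAK-WT, at 164, 168 and 201 CPM in FAK-/- and at 146, 154 and 158 CPM in FAK-kd libraries. The 3 lines did not overlap, with FAK-kd in between. The means were 125 ± 10.9, 178 ± 20.6 and 152 ± 6.01 CPM (SD, n = 3 each). FAK-/- cells had 1.39-fold the FAK-WT level (95% interval 1.22 to 1.58, log2 fold change for FAK-WT over FAK-/- of -0.47, standard error 0.09, edgeR adjusted p = 0.00124), and this passed in all 16 alternatives with the fold-change minimum never reached. FAK-/- replicate 3, the library that stood apart, was the highest, and without it the log2 fold change was -0.36 (edgeR adjusted p = 0.00013). The other steps did not pass. FAK-kd was 1.19-fold FAK-WT (95% interval 1.05 to 1.35, edgeR adjusted p = 0.0624, past 0.05 in 3 of 16 alternatives) and FAK-/- was 1.17-fold FAK-kd (95% interval 1.03 to 1.32, edgeR adjusted p = 0.128). Of the fibroblast markers, *Pdgfra*, *Pdgfrb* and *Col1a1* also had their lowest mean in FAK-WT cells. *Col1a2* (means of 4.9, 2.5 and 6.11 CPM in FAK-WT, FAK-/- and FAK-kd) and *Dcn* (0.294, 0.0819 and 0.347 CPM) were instead lowest in FAK-/- cells. The part of these markers in the *Src* result was not tested.

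*Fyn* and *Yes1*, broadly expressed relatives of Src that can take its place in part, passed in no comparison. *Fyn* (ENSMUSG00000019843, chromosome 10) stood at 41.5, 27.6 and 26.6 CPM in FAK-WT, at 34.5, 33.4 and 35.5 CPM in FAK-/- and at 29.2, 35.9 and 34.1 CPM in FAK-kd libraries. The FAK-WT range enclosed all other values, because the shallow replicate 1 was the highest of all on 33 counts. With that library left out, *Fyn* was lower in FAK-WT cells by 0.35 against FAK-/- on the log2 scale and passed (edgeR adjusted p = 0.0292, against 0.174 with it). *Yes1* (ENSMUSG00000014932, chromosome 5) stood at 49.1, 29.1 and 30.9 CPM in FAK-WT, at 31.3, 29 and 17.4 CPM in FAK-/- and at 27.8, 28 and 25.5 CPM in FAK-kd libraries. FAK-/- replicate 3 was the lowest and FAK-WT replicate 1, on 39 counts, the highest. The edgeR adjusted p of *Yes1* was at least 0.312, and 9.74% of its 31-base words also occur in other genes, the highest share among the 10 genes. The 3 kinases encode the same residue at 70.6% (Src and Fyn), 76.3% (Src and Yes1) and 74.7% (Fyn and Yes1) of aligned codons, but *Src* shared no 31-base word with another gene. Summed per kilobase, *Src*, *Fyn* and *Yes1* came to 49 ± 2.23 CPM per kb in FAK-WT, 60.8 ± 3.91 for FAK-/- and 54.2 ± 2.25 for FAK-kd cells (SD, n = 3 each), and *Src* made up 65.7%, 74.7% and 72% of these sums.

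**Figure D2:**
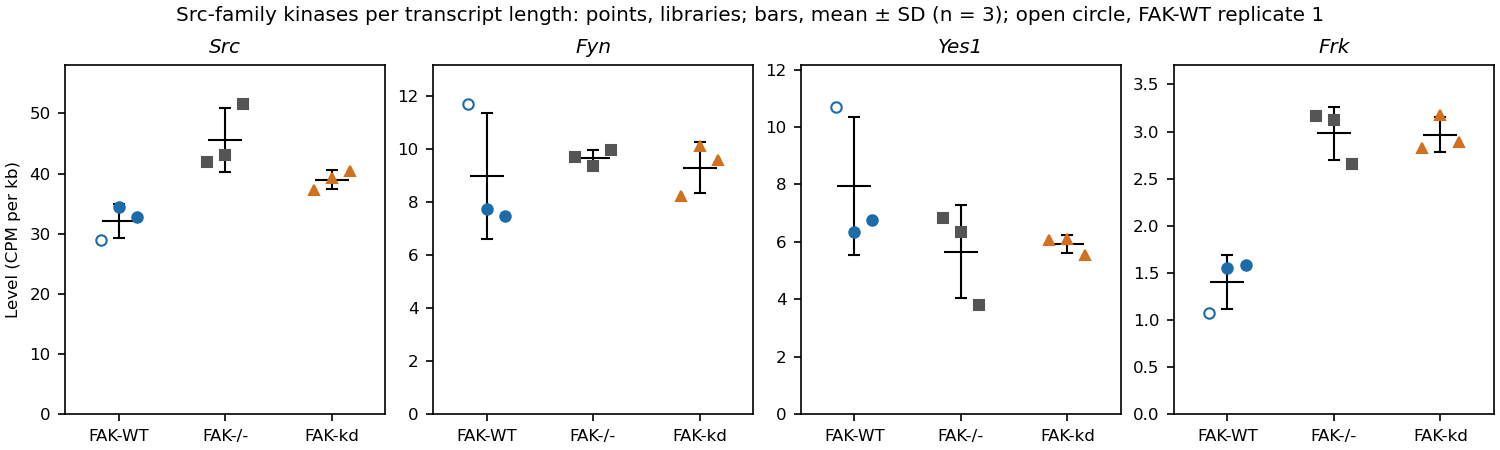
Level of *Src*, *Fyn*, *Yes1* and the related kinase *Frk* in each library, in CPM per kb of the longest coding transcript, with points for libraries, bars for mean ± SD (n = 3) and an open circle for the shallow FAK-WT replicate 1. *Src* and *Frk* separate FAK-WT from FAK-/- libraries, whereas the *Fyn* and *Yes1* points of these lines overlap. All FAK-WT points of *Yes1* lie above its FAK-kd points.

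The Cas-family scaffolds moved in different comparisons. p130Cas and HEF1 carry a substrate domain of repeated tyrosine motifs to which the SH2 domains of Crk and Crkl bind once they are phosphorylated, and tyrosine codons followed by a proline codon at the third position after them, the core of such motifs, number 16 in the *Bcar1* and 14 in the *Nedd9* coding sequence. *Nedd9* (ENSMUSG00000021365, chromosome 13, 41309581 to 41487362), the scaffold HEF1 of migrating and dividing cells, stood at 2.52, 2.93 and 2.6 CPM in FAK-WT, at 5.51, 5.05 and 4.83 CPM in FAK-/- and at 5.49, 8.36 and 9.05 CPM in FAK-kd libraries. Every FAK-WT library was below every other library, while FAK-/- and FAK-kd overlapped at FAK-kd replicate 1. FAK-WT replicate 1 holds only 2 *Nedd9* counts (exact Poisson 95% interval 0.305 to 9.09 CPM), so the separation rests on the other FAK-WT libraries. FAK-kd cells had 2.77-fold the FAK-WT level (95% interval 2.03 to 3.79, log2 fold change for FAK-WT over FAK-kd of -1.47, standard error 0.21, edgeR adjusted p = 0.00013). *Nedd9* was the only one of the 10 genes to pass both the test and the fold-change minimum in this comparison, and it did so in all 15 alternatives that kept it. FAK-/- cells had 1.86-fold the FAK-WT level (95% interval 1.36 to 2.55, log2 fold change -0.90, standard error 0.21, edgeR adjusted p = 0.00744), which was lost without FAK-WT replicate 3 (0.0775). The FAK-kd level was 1.49-fold that of FAK-/- cells (95% interval 1.13 to 1.95) and did not pass (edgeR adjusted p = 0.0727), except without FAK-kd replicate 1 (0.0152).

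*Bcar1* (ENSMUSG00000031955, chromosome 8, 111710474 to 111743809) encodes p130Cas, the main Src substrate in focal adhesions. It stood at 70.5, 59.8 and 64.1 CPM in FAK-WT, at 62.7, 68.1 and 84.5 CPM in FAK-/- and at 53.5, 54.5 and 41.9 CPM in FAK-kd libraries. All FAK-kd libraries were below all others, and FAK-WT and FAK-/- overlapped. FAK-/- cells had 1.44-fold the FAK-kd level (95% interval 1.21 to 1.71, log2 fold change for FAK-kd over FAK-/- of -0.52, standard error 0.12, edgeR adjusted p = 0.0113), which was lost without FAK-kd replicate 3 (log2 fold change -0.42, edgeR adjusted p = 0.0896) and kept without FAK-/- replicate 3, the highest library (-0.39, edgeR adjusted p = 0.00414). FAK-WT was 1.26-fold FAK-kd (95% interval 1.05 to 1.52, edgeR adjusted p = 0.0777, past 0.05 in 4 of 16 alternatives), and FAK-WT against FAK-/- did not pass (log2 fold change -0.18, edgeR adjusted p = 0.368). Per kilobase *Bcar1* exceeded *Nedd9* in every line, at 20.6, 22.8 and 15.9 against 0.55, 1.05 and 1.57 CPM per kb in FAK-WT, FAK-/- and FAK-kd cells. The Cas-family sum was 21.2 ± 1.67 CPM per kb in FAK-WT cells and 17.5 ± 2.02 in FAK-kd cells (n = 3 each), lower in FAK-kd although *Nedd9* was higher there.

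Paxillin, the scaffold that binds the focal adhesion targeting domain of FAK, and the Crk adaptors passed in no comparison. *Pxn* (ENSMUSG00000029528, chromosome 5) stood at 122, 145 and 142 CPM in FAK-WT, at 119.8, 114 and 148 CPM in FAK-/- and at 113, 121 and 113 CPM in FAK-kd libraries. FAK-/- replicate 3 was the highest of all 9 libraries, and the other FAK-/- libraries were below every FAK-WT library. FAK-WT was 1.21-fold FAK-kd (95% interval 1.05 to 1.39, edgeR adjusted p = 0.0647) with no overlap, and this passed in 7 of 16 alternatives, DESeq2 and both other scalings among them. Against FAK-/- cells *Pxn* did not pass (log2 fold change 0.13, edgeR adjusted p = 0.406), but without FAK-/- replicate 3 it did, at a log2 fold change of 0.28 (edgeR adjusted p = 0.002). *Crk* (ENSMUSG00000017776, chromosome 11), which links phosphorylated p130Cas and paxillin to exchange factors, averaged 237 CPM in FAK-WT, 225 CPM for FAK-/- and 222 CPM for FAK-kd cells. Its relative *Crkl* (ENSMUSG00000006134, chromosome 16) averaged 80.9, 77.7 and 76.6 CPM in the same order. Their log2 fold changes lay between -0.02 and 0.09 in the 3 comparisons, with 95% intervals inside -0.18 to 0.26, and the edgeR adjusted p was at least 0.473. *Crk* made up 77.5%, 77.2% and 77.3% of the summed per-kilobase level of the pair in FAK-WT, FAK-/- and FAK-kd cells.

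**Figure D3:**
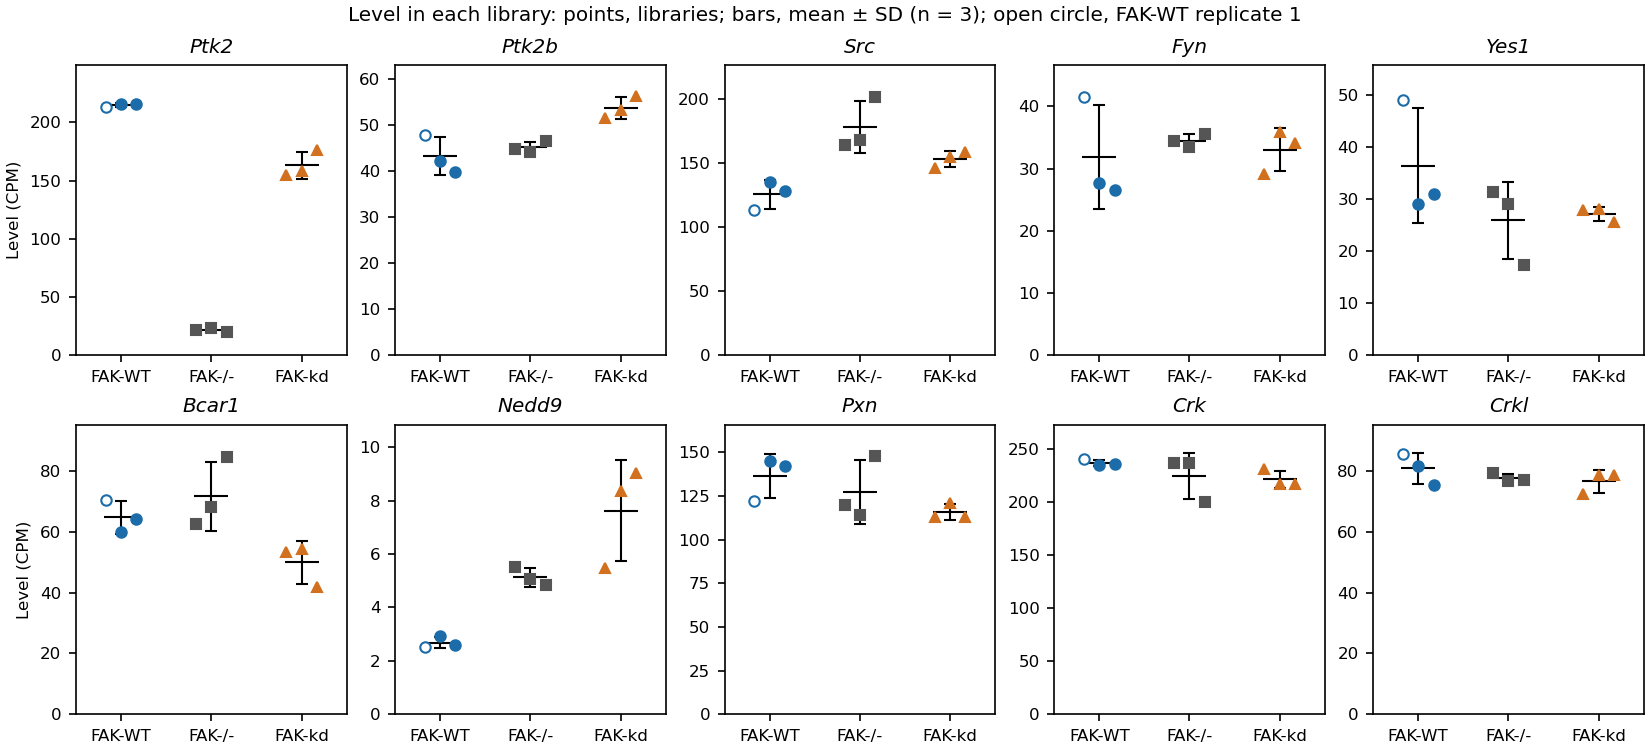
Level of the 10 genes in each library in CPM, with points for libraries, bars for mean ± SD (n = 3) and an open circle for FAK-WT replicate 1, each panel with its own scale from 0. *Ptk2* separates all 3 lines, *Ptk2b* is highest in FAK-kd libraries (51.6 to 56.5 CPM) and *Nedd9* is lowest in FAK-WT libraries (2.52 to 2.93 CPM).

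Per kilobase, *Crk* had the highest and *Nedd9* the lowest mean of the 10 genes in each line. In FAK-/- cells *Crk* (52.4 ± 5.02 CPM per kb) overlapped *Src* (45.5 ± 5.28), which was above it in replicate 3 (51.6 against 46.6 CPM per kb). *Ptk2* was second in FAK-WT cells at 46 ± 0.412 CPM per kb, between *Crk* (55.3 ± 0.685) and *Pxn* (36.8 ± 3.36), with no overlap to either. In FAK-/- cells it stood ninth at 4.63 ± 0.412 CPM per kb, overlapping *Yes1* (5.65 ± 1.62), and in FAK-kd cells it stood at 34.9 ± 2.46 CPM per kb, overlapping *Src* (39 ± 1.54; n = 3 throughout). *Ptk2b* ranked between *Crkl* and *Fyn* in all 3 lines, at 10.7 ± 1.03, 11.2 ± 0.321 and 13.3 ± 0.626 CPM per kb, and overlapped *Fyn* in FAK-WT libraries only.

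Across the set, 3 of 10 genes passed at an adjusted p of 0.05 or below for FAK-WT over FAK-/- cells (*Ptk2* higher, *Src* and *Nedd9* lower in FAK-WT), where 18.0% of all genes did. For FAK-WT over FAK-kd cells 3 of 10 passed (*Ptk2* higher, *Ptk2b* and *Nedd9* lower in FAK-WT), against 17.7% of all genes. For FAK-kd over FAK-/- cells 2 of 10 passed (*Ptk2* higher, *Bcar1* lower in FAK-kd), against 7.84% of all genes. The table holds many genes with few counts, and among the 12235 kept by filterByExpr, which kept all 10, the shares were 29.3%, 29.0% and 13.3%. By direction, the background was 8.01% of all genes higher and 9.96% lower for FAK-WT over FAK-/-, 7.58% and 10.2% for FAK-WT over FAK-kd, and 3.97% and 3.88% for FAK-kd over FAK-/- cells. Apart from *Ptk2*, which was the gene manipulated, the counts of 2 of 9, 2 of 9 and 1 of 9 are near these backgrounds. Past the fold-change minimum were *Ptk2* in both comparisons with FAK-/- cells and *Nedd9* in FAK-WT over FAK-kd cells, against 5.38%, 5.26% and 2.01% of all genes in FAK-WT over FAK-/-, FAK-WT over FAK-kd and FAK-kd over FAK-/- cells. The groups did not overlap for 3, 8 and 4 of the 10 genes, against 42.5%, 47.7% and 35.3% of the genes kept by filterByExpr. The median log2 fold change of the 10 genes was -0.04, 0.07 and -0.02, against 0.00 over all genes tested in each comparison. The comparisons share libraries and are not independent of one another.

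**Figure D4:**
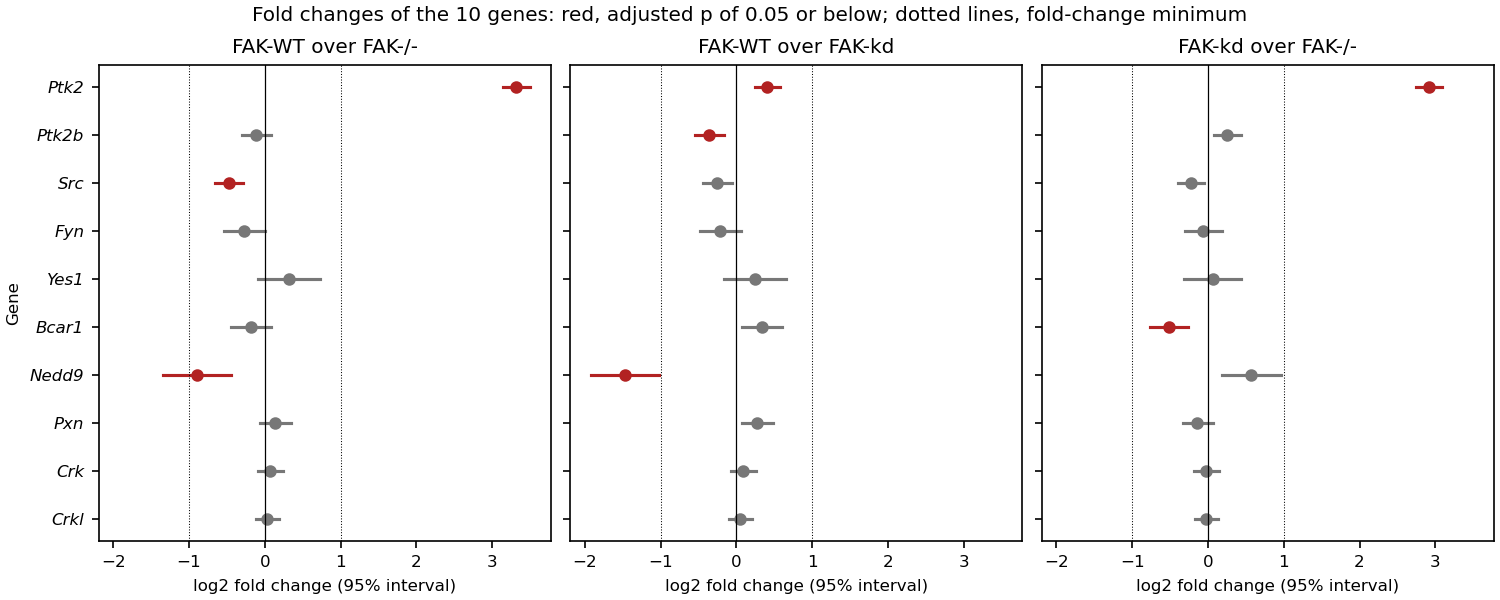
Log2 fold changes of the 10 genes with 95% intervals from the edgeR fit in the 3 comparisons, on a common axis, in red where the adjusted p was 0.05 or below, with dotted lines at the fold-change minimum of 1. *Ptk2* stands at 3.32 and 2.91 over FAK-/- cells, and *Nedd9* at -1.47 for FAK-WT over FAK-kd cells is the only other point beyond a dotted line.

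Genes around these 10 in the pathway were read from 4 lists, which do not hold every gene of the pathway. Of 5 other Src-family kinases 4 were in the table (*Blk* was not listed). For FAK-WT over FAK-/- 2 of the 4 passed as lower and 0 as higher, where 9.96% of all genes passed as lower, and the same counts held for FAK-WT over FAK-kd, against 10.2% of all genes. Of the 4 genes, filterByExpr kept 2. For FAK-kd over FAK-/- 0 passed in edgeR, 0 had an unadjusted p under 0.05 and 0 passed in DESeq2. In edgeR 7.84% of all genes passed in that comparison, or 13.3% of those kept by filterByExpr, so a count of 0 is near the background. The median log2 fold changes were -0.46, -0.26 and -0.20. Together with *Src*, *Fyn* and *Yes1* the 7 kinases summed to 50.5 ± 1.89 CPM per kb in FAK-WT, 64.4 ± 3.7 for FAK-/- and 57.6 ± 2.44 for FAK-kd cells (SD, n = 3 each), and *Src* made up 63.7%, 70.5% and 67.7% of these sums. The leukocyte markers summed to 0 to 2.21 CPM in FAK-WT, 2.96 to 3.33 CPM in FAK-/- and 1.5 to 2.64 CPM in FAK-kd libraries, most of it *Cd68*, with the pan-leukocyte *Ptprc* at no more than 0.629 CPM and *Cd3e* and *Adgre1* not in the table, and their part in the results on these kinases was not tested.

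*Frk*, an epithelial relative of Src, was lower in FAK-WT cells by 0.95 on the log2 scale in both comparisons (6.57 ± 1.33 CPM in FAK-WT, 14 ± 1.31 for FAK-/- and 13.9 ± 0.871 for FAK-kd cells, n = 3 each, edgeR adjusted p = 4.9e-05 and 5e-05). *Lck*, the Src-family kinase of T cells, differed from FAK-/- cells in the same direction (log2 fold change -2.28, edgeR adjusted p = 0.00081) and FAK-kd cells (-1.81, 0.00476), but on at most 43 counts in any library, and the second call was lost without FAK-WT replicate 3 (0.0606). *Csk*, which phosphorylates the inhibitory tail tyrosine of Src kinases, did not pass (edgeR adjusted p at least 0.143). Its values split within groups, at 106, 58.3 and 54.7 CPM in FAK-WT and 60.7, 65.3 and 109 CPM in FAK-/- libraries. The FAK-kd libraries, at 50.4, 55.9 and 58.8 CPM, were all below the FAK-/- libraries. FAK-kd over FAK-/- passed for *Csk* in 1 of 16 alternatives, without FAK-/- replicate 1 (edgeR adjusted p = 0.0403).

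Of 14 other Cas, paxillin and SH2/SH3 adaptors 13 were in the table (*Efs* was not listed), of which 2 passed as higher and 3 as lower for FAK-WT over FAK-/-, again 2 and 3 for FAK-WT over FAK-kd and 0 for FAK-kd over FAK-/- cells (0 in DESeq2, and 2 at an unadjusted p under 0.05 in edgeR), with median log2 fold changes of -0.13, -0.06 and 0.03. The 5 of 13 in each comparison with FAK-WT cells stand against 18.0% and 17.7% of all genes, or 29.3% and 29.0% of those kept by filterByExpr, which kept 10 of the 13. For FAK-kd over FAK-/- cells the 0 of 13 stands against 7.84% of all genes, or 13.3% of those kept by filterByExpr. *Tgfb1i1*, *Bcar3*, *Nck2*, *Sorbs2* and *Sorbs3* passed in both comparisons with FAK-WT cells. *Tgfb1i1* (Hic-5), the paxillin relative that encodes the same residue at 52.6% of aligned codons, stood at 108, 96.6 and 93.8 CPM in FAK-WT, at 165, 168 and 211 CPM in FAK-/- and at 190.3, 191 and 187 CPM in FAK-kd libraries. FAK-WT libraries were below all others, and FAK-/- and FAK-kd overlapped. Against FAK-/- cells its log2 fold change in FAK-WT was -0.90 (standard error 0.09, edgeR adjusted p = 5.4e-06) and against FAK-kd cells -0.96 (standard error 0.09, edgeR adjusted p = 3e-06). *Pxn* with *Tgfb1i1* came to 63.1 ± 1.53 CPM per kb in FAK-WT, 82.3 ± 11.7 for FAK-/- and 81.2 ± 1.57 for FAK-kd cells (n = 3 each). *Bcar3*, an exchange-factor-like partner of p130Cas, was lower in FAK-WT cells by 0.67 and 0.72 (edgeR adjusted p = 0.0149 and 0.00906), and *Nck2*, an SH2/SH3 adaptor, by 0.56 and 0.59 (0.0022 and 0.00142). The first *Bcar3* call was lost with only the groups compared and without FAK-/- replicate 1 or FAK-WT replicate 2 or 3, and the second without FAK-WT replicate 2 or FAK-kd replicate 2. *Sorbs3* (vinexin), a vinculin-binding adaptor, was higher in FAK-WT cells by 0.64 and 0.41 (edgeR adjusted p = 0.00012 and 0.00477). *Sorbs2*, of the same family, had 1, 15 and 22 counts in FAK-WT, 2, 0 and 5 in FAK-/- and 2, 0 and 0 in FAK-kd libraries. It passed against FAK-/- cells (log2 fold change 2.78, edgeR adjusted p = 0.0311, lost with DESeq2 and without FAK-/- replicate 1 or 2 or FAK-WT replicate 2 or 3) and against FAK-kd cells (edgeR adjusted p = 0.0041), where the ratio of pooled counts was 26.2 with a counting interval of 6.78 to 225.

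All 10 listed inhibitors and phosphatases of FAK and Src were in the table. In edgeR 1 was lower for FAK-WT over FAK-/- and 1 was lower for FAK-WT over FAK-kd, against 18.0% and 17.7% of all genes. In DESeq2 2 passed in each, and its share of all genes was not computed. For FAK-kd over FAK-/- 0 passed in edgeR, against 7.84% of all genes, and 0 in DESeq2, with 1 at an unadjusted p under 0.05 in edgeR. Among genes kept by filterByExpr, which kept 9 of the 10, the shares were 29.3%, 29.0% and 13.3%. *Ptpn6* (SHP-1) was the one that passed, lower in FAK-WT cells by 0.83 against FAK-/- and by 0.76 against FAK-kd cells on the log2 scale (edgeR adjusted p = 0.00031 and 0.00063). The median log2 fold change of the list was -0.20 for FAK-WT over FAK-/-, -0.04 for FAK-WT over FAK-kd and -0.05 for FAK-kd over FAK-/- cells.

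All 18 listed exchange factors, GTPase-activating proteins and effectors were measured, and those that passed numbered 1 higher and 2 lower for FAK-WT over FAK-/-, 2 higher and 4 lower for FAK-WT over FAK-kd and 1 higher for FAK-kd over FAK-/- cells, where 4 passed in DESeq2 and 6 had an unadjusted p under 0.05 in edgeR. The edgeR totals of 3, 6 and 1 of 18 stand against 18.0%, 17.7% and 7.84% of all genes, or 29.3%, 29.0% and 13.3% of those kept by filterByExpr, which kept all 18. Shares of all genes for DESeq2 and for the unadjusted p were not computed. The medians were -0.07, 0.01 and -0.07. *Rapgef1*, the exchange factor that Crk carries to p130Cas, was higher in FAK-WT cells by 0.32 against FAK-/- and by 0.52 against FAK-kd cells (means of 309 ± 26.5, 245 ± 7.08 and 213 ± 6.68 CPM in the order FAK-WT, FAK-/-, FAK-kd, n = 3 each, edgeR adjusted p = 0.00541 and 8.3e-05). *Dock1*, the exchange factor for Rac that p130Cas and Crk engage, was lower in FAK-WT cells by 0.31 against FAK-/- (edgeR adjusted p = 0.0184, lost in 3 alternatives that left out a library: FAK-/- replicate 1 or 2 or FAK-WT replicate 3), and its partner *Elmo2* was lower than in FAK-kd cells by 0.36 (0.0026). *Asap2*, an Arf GTPase-activating protein, was lower in FAK-WT cells by 0.61 and 0.69 (edgeR adjusted p = 0.00013 and 3.5e-05). *Asap1*, which binds Src and FAK, was highest in FAK-kd cells, with FAK-WT lower by 0.39 (edgeR adjusted p = 0.00056) and FAK-kd over FAK-/- at 0.46 (0.00033). *Arhgap35*, a GTPase-activating protein, was higher in FAK-WT than in FAK-kd cells by 0.31 (edgeR adjusted p = 0.00802, and 0.0538 without FAK-WT replicate 2). *Arhgef28*, an exchange factor that binds FAK, was lower in FAK-WT cells against FAK-kd (log2 fold change -1.48, edgeR adjusted p = 0.0224) on at most 88 counts in any library, a call lost in 5 alternatives, DESeq2 and leaving out FAK-WT replicate 2 or 3 or FAK-kd replicate 2 or 3.

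**Figure D5:**
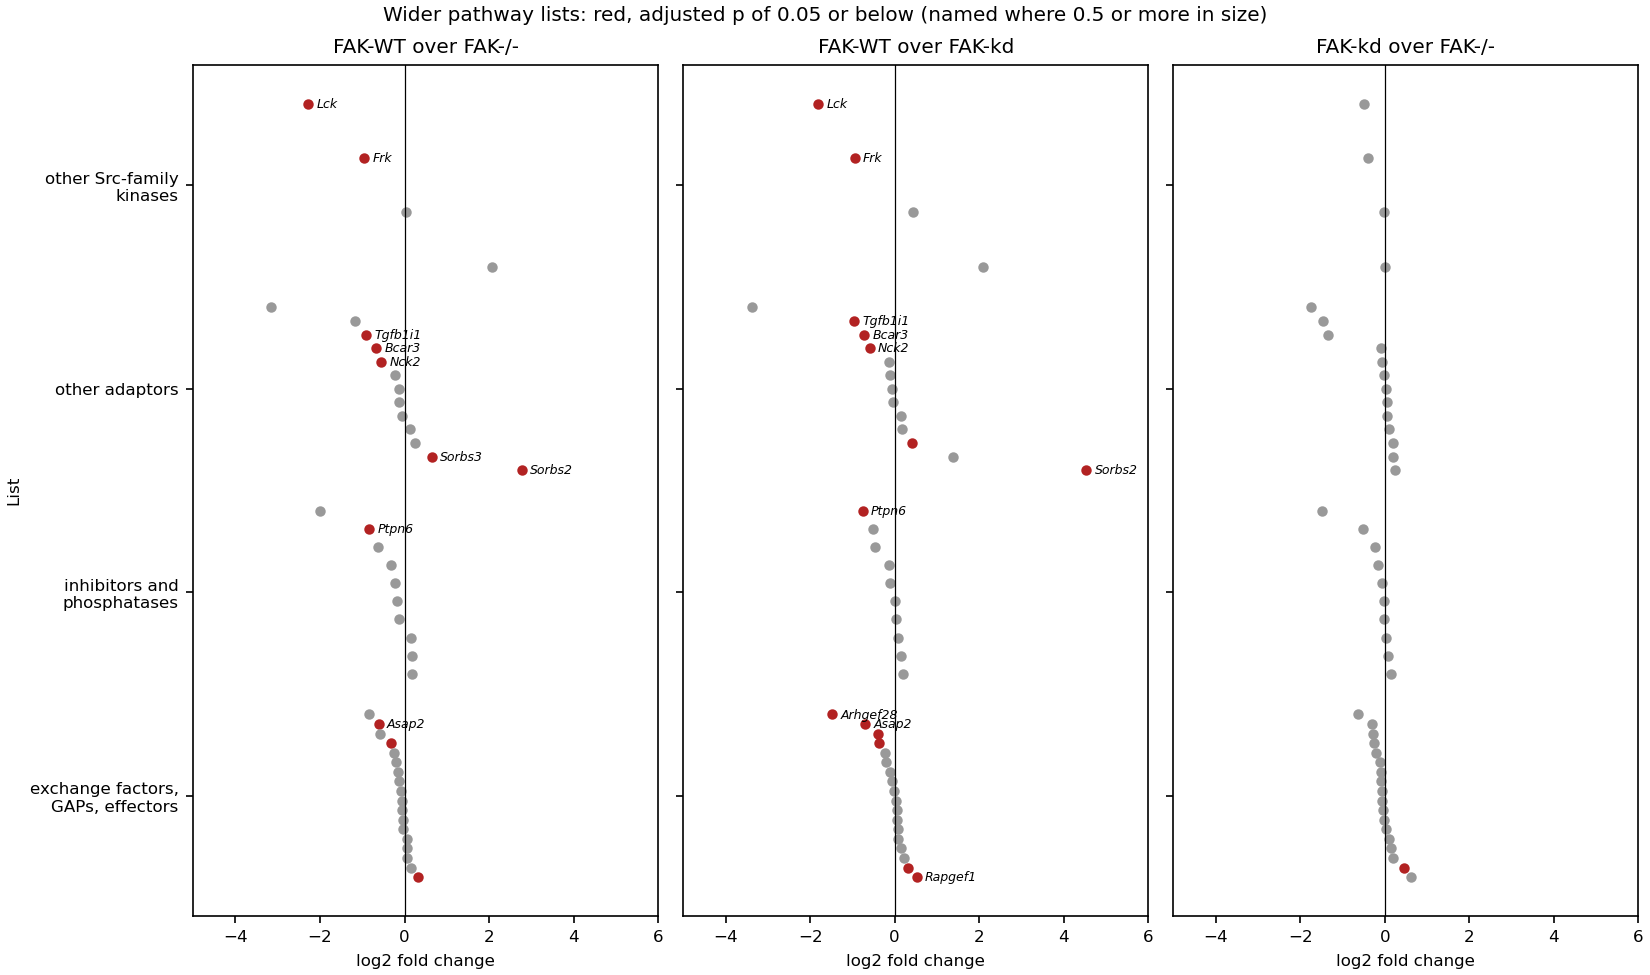
Log2 fold changes of the measured genes of the 4 lists in the 3 comparisons, 1 point per gene, ordered within each list, in red where the adjusted p was 0.05 or below and named where the change was at least 0.5 in size. *Frk* stands at -0.95 in both comparisons with FAK-WT cells, and *Ptpn6*, at -0.83 and -0.76, is the one red point of the inhibitors and phosphatases in each of them.

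The genes whose pattern was most like that of *Ptk2* over the 9 libraries, by Pearson correlation of log2 CPM among the 12234 other genes kept by filterByExpr, were *Gpr149* (r = 0.999), *Dynap* (0.994) and *Ephx1* (0.991). For *Ptk2b* they were *Oplah* (0.974), *Gpr161* (0.97) and *Brd1* (0.963). *Brd1* averaged 122, 128 and 139 CPM and *Gpr161* 23, 24.8 and 29.5 CPM in FAK-WT, FAK-/- and FAK-kd cells. The 9 points fall into 3 cell lines, so these coefficients mostly describe the order of the line means and are given as a description, with no test.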

How the data were processed

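RNA-seq was performed by the authors on TruSeq v2 libraries, whose kit does not mark strand, from 3 cell lines with 3 replicates each. The authors quantified reads with kallisto (0.43.1 in the submitters' processing notes, with GRCm38/mm10) and used tximport for gene-level sums. What they deposited are estimated counts (expected counts), rounded to whole numbers and not scaled to depth, for 19044 genes. Symbols of 18856 genes, transcript lengths and coding sequences came from the GENCODE annotation of mm10. Reads of genes with overlapping antisense transcripts (*Ptk2*, *Fyn*, *Yes1*, *Nedd9*) cannot be told apart by strand.

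All genes were fitted with edgeR 4.0.16 in R 4.3.3 (TMM, glmQLFit and glmQLFTest, all 9 libraries, cell line as the only factor), and p-values were adjusted by Benjamini-Hochberg over all genes. A gene passed at an adjusted p of 0.05 or below. The fold-change minimum was 1 on the log2 scale, as in the study. The per-gene alternatives were DESeq2 1.42.0, DESeq2 size factors, library size, filterByExpr, at least 10 counts per library, only the groups compared, a replicate block and leaving out each library. For the *Ptk2b* share, other gene lengths were used. Where a library is left out, its group is assumed to vary like the others. Intervals cover counting error or the spread between replicates only, which may be technical.

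The 10 genes and the lists were chosen with earlier results of these data known. Besides them, genes were named in the wider lists where they passed the test and, for similar patterns, the 3 closest by correlation. In those lists genes past the fold-change minimum were named by rule and the others that passed, and *Csk*, after their values were seen. Some genes of the lists are not reported here.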

Additional observations from a re-analysis of the deposited data

How the results depend on the processing

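Of 477 log2 fold changes of the 10 genes under the alternatives, 446 kept their direction and their side of the threshold, 20 came to pass, 5 no longer passed and 6 changed sign. The changes of sign came with a library left out and were small. For FAK-kd over FAK-/-, *Fyn* ran from -0.13 to 0.02 (above 0 without FAK-kd replicate 1), *Yes1* from -0.15 to 0.22 (below 0 without FAK-/- replicate 3), *Crk* from -0.10 to 0.02 (above 0 without FAK-/- replicate 1, and 0.01 without replicate 2) and *Crkl* from -0.05 to 0.01 (above 0 without FAK-kd replicate 1), and for FAK-WT over FAK-/- *Crk* ran from -0.01, without FAK-/- replicate 3, to 0.12.

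Of the 10 genes, the number that passed for FAK-WT over FAK-/- was 3, between 2 and 4 with a library left out. For FAK-WT over FAK-kd it was 3, but 5 with DESeq2, 6 with only the groups compared, and between 2 and 6 with a library left out, 6 without FAK-/- replicate 3. For FAK-kd over FAK-/- it was 2, and between 1 and 3 with a library left out, 1 without FAK-kd replicate 3. With the fold-change minimum 1 gene was past it in each comparison. In the wider lists 1 gene passed for FAK-kd over FAK-/-, 4 with DESeq2, 2 with filterByExpr and between 1 and 7 with a library left out, 7 without FAK-/- replicate 3 and 2 without FAK-/- replicate 1 or 2, FAK-kd replicate 3 or FAK-WT replicate 1. The share of all genes that passed was computed only for the main fit and filterByExpr. Counts under the other alternatives therefore have no background and are no result about these genes.

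The log2 fold change of *Ptk2b* ran from -0.39 to -0.30 for FAK-WT over FAK-kd and from 0.21 to 0.27 for FAK-kd over FAK-/- with a library left out, and was 0.25 with filterByExpr and 0.24 with at least 10 counts. The difference in its share, -51.9, -8.77 and -43.1 percentage points for FAK-WT less FAK-/-, FAK-WT less FAK-kd and FAK-kd less FAK-/-, became -39.2, -4.43 and -34.8 with the mean coding transcript length. The minimum of 10 counts removes *Nedd9* from the 10 genes.

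Same-numbered replicates of different lines did not deviate together (mean r of -0.00768 across genes over 9 pairs, between -0.0464 and 0.0453), so no pairing by number was seen. The counting noise of the shallow FAK-WT replicate 1 enters the FAK-WT deviations, so this check cannot exclude pairing. With a replicate block 3, 4 and 2 of the 10 genes passed in the 3 comparisons, the added one being *Src* for FAK-WT over FAK-kd (log2 fold change -0.27, edgeR adjusted p = 0.0393). The share of all genes that passed with the block was not computed. Of the 10 genes *Nedd9* had the fewest counts, at most 309 in any library, and FAK-WT replicate 1 held the fewest counts of each of the 10.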
